A study of Homo sapiens with 5 samples.

Results

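The pro-apoptotic arm of the BCL2 family was followed in parental and EZH2 inhibitor-resistant (EIR) TOV21G cells through 10 genes, chosen by name from the 30476 genes of the deposited count table. They comprised 7 genes whose products carry a BH3 domain as their only BCL2 homology domain (BBC3, BCL2L11, BID, PMAIP1, BIK, BMF and HRK) and 3 effector genes (BAX, BAK1 and BOK). All 10 were measured, and 8 had a mean of at least 100 normalized counts over the 5 libraries. BIK and HRK were below that level.

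TOV21G is an established cell line of ovarian clear cell carcinoma. It carries a mutation of ARID1A, which encodes a SWI/SNF subunit, and all cultures described here share it. EIR cells were selected from it by exposure to GSK126, an inhibitor of the histone methyltransferase EZH2, at 5, 10, 15 and then 20 uM, after which clones were picked. RNA-seq was performed on untreated parental cells (1 library), on EIR clone 3 untreated and treated with GSK126, and on EIR clone 4 untreated and treated with GSK126 (4 EIR libraries in all). For the cultures under drug the GSK126 dose and exposure time are not given in the sources used here. Each resistant line is 1 clone, profiled in 2 libraries, and the parental library has no replicate.

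BCL2 family proteins decide whether the outer mitochondrial membrane is opened during apoptosis. BAX and BAK1 form the pores that release cytochrome c, and BOK is a related effector. Anti-apoptotic members such as BCL2, BCL2L1 and MCL1 hold the effectors and the BH3-only proteins in check. Among the BH3-only proteins, BBC3 (PUMA), BCL2L11 (BIM) and BID bind anti-apoptotic members broadly and can also activate BAX and BAK1 directly, whereas PMAIP1 (NOXA), BIK, BMF and HRK mainly neutralise particular anti-apoptotic members. The BH3-only genes are known to be controlled in large part by transcription, for example by p53 for BBC3 and PMAIP1 and by FOXO factors for BCL2L11 and BBC3.

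The promoters of 4 members are shown because these genes passed against parental cells in both clones (BBC3, HRK and BOK) or differed between the clones with a FOXO-type motif in its window (BCL2L11). The sequences are RefSeq promoters on GRCh38.p14, 250 bases before to 50 bases after a transcription start, written 5′ to 3′ on the strand of the gene with every CpG in capitals. BBC3 lies at chr19:47232618-47232917 (minus strand), BCL2L11 at chr2:111120664-111120963 (plus strand), HRK at chr12:116881392-116881691 (minus strand) and BOK at chr2:241558495-241558794 (plus strand).
BBC3: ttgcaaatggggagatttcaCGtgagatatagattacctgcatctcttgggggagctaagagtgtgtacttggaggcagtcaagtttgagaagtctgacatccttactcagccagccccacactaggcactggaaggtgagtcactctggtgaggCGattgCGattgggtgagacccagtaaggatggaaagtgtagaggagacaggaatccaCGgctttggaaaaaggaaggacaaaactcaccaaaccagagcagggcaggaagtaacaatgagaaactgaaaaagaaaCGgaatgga
BCL2L11: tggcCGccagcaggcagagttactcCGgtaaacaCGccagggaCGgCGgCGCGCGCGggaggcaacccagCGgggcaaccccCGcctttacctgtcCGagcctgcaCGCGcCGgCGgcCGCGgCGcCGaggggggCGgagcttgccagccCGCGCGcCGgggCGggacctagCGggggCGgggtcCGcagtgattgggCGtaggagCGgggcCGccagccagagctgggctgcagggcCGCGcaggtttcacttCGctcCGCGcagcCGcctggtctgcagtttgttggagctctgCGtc
HRK: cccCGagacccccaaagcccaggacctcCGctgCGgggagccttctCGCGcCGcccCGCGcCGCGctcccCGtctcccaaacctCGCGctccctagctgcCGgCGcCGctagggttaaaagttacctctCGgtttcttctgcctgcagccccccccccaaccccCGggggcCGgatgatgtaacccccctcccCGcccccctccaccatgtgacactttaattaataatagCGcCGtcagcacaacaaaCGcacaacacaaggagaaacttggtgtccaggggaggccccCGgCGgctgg
BOK: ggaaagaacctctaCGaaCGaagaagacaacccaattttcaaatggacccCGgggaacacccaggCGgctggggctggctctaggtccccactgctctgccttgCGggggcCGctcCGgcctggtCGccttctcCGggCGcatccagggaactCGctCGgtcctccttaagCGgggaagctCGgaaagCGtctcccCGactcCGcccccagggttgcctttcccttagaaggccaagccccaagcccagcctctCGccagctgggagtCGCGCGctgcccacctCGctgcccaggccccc
The BBC3 window held 5 CpG, against 39 in BCL2L11, 25 in HRK and 22 in BOK, and a median of 14 over 35116 promoters of 300 bases. The table has 1 start for BBC3, and its other start sites are not shown. The letters CACGTG (an E-box, its own reverse complement) occurred once in the BBC3 window and in 7.26% of all promoters. They also occurred 4 times in the BAX window and once in some of the BID windows. The letters GTAAACA (a FOXO-type motif, searched on both strands) occurred once in the BCL2L11 window and in 3.42% of all promoters. BCL2L11 was shown because of this motif, so its presence there was fixed by the choice. The windows of BMF, BID and BOK, which also differed between the clones, held 0. The BBC3 window held 0 of the letters GTAAACA and 0 p53 half-sites. These are descriptions of the letters in the window and not of bound sites. Among the other members the CpG number ranged from 1 in one of the BMF windows to 42 in PMAIP1 (chromosome 18). BIK has no entry.

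Estimated counts summed to 25479238 to 30764963 per library, and size factors ranged from 0.945 to 1.08, so that raw counts of a gene can be compared across libraries almost directly. Of the clear cell and epithelial markers, PAX8 had 3031 to 4491 counts, KRT8 4331 to 8176, KRT18 11896 to 18015, KRT7 81 to 199 and NAPSA 2 to 53. EPCAM had 398 to 498 counts in parental and clone 3 libraries but 0 and 1 in the untreated and treated clone 4 libraries. Markers of other cells were low for PTPRC (2 to 15 counts) and COL1A1 (13 to 91 counts), and ACTA2 had 348 to 974. PECAM1 was not analysed here. The clones thus differed in a defining epithelial marker, whose part in the differences between clones was not tested.

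BBC3 fell in both clones, and HRK rose in both. BOK fell in both clones and further in clone 4. BCL2L11 fell in clone 3, and BID and BIK fell in clone 4. PMAIP1, BMF, BAX and BAK1 passed the test against parental cells in neither clone. In clone 3, 4 of 10 members passed the threshold against parental cells (DESeq2, adjusted p under 0.05 over all genes tested), 3 lower and 1 higher, where 29.2% of all genes tested passed (14.5% lower and 14.7% higher). In clone 4, 5 of 10 members passed, 4 lower and 1 higher, where 32.9% of all genes tested passed (18.3% lower and 14.7% higher). With 10 members these counts were not far from the shares over all genes, and both comparisons used the same parental library. In edgeR 5 members passed in each clone, where 19.3% and 21.1% of 30476 genes passed in clones 3 and 4. The DESeq2 shares are over 16886 and 16295 genes, so the shares of the 2 tools are not comparable. In all, edgeR called 5894 and 6416 genes, against 4925 and 5368 in DESeq2. The median log2 fold change of the members was -0.42 in each clone, against -0.01 and -0.02 over all genes tested in clones 3 and 4. With GC correction the members' median was -0.09 in each clone, against 0.04 and 0.07 over all genes tested. In bulk RNA, fewer cells that carry a transcript and less transcript per cell cannot be told apart.

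**Figure D1:**
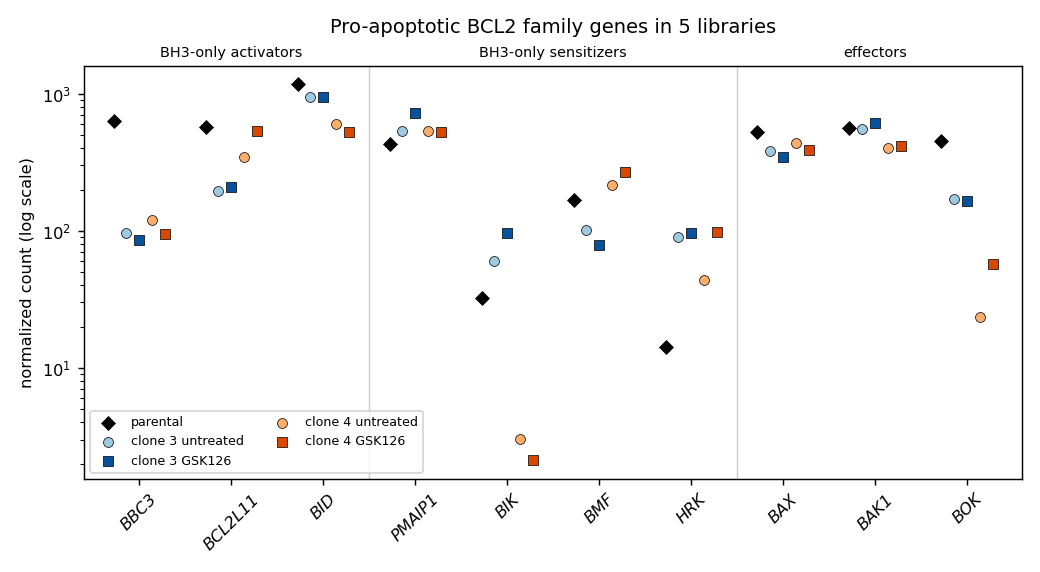
Normalized counts (log scale) of the 10 members in the parental library (diamonds), in clone 3 (blue) and in clone 4 (orange), with circles for untreated and squares for GSK126-treated cultures. BBC3 sits at 630 in parental cells and at 86.0 to 120 in the 4 EIR libraries, while BIK is at 3.05 and 2.12 in clone 4.

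Among the activators, BBC3 had 626 counts in parental cells. It had 105 and 87 counts in untreated and GSK126-treated clone 3 and 118 and 90 in untreated and treated clone 4. All EIR libraries were below parental cells by a similar amount. BBC3 was 6.88-fold lower in clone 3 (log2 fold change -2.78, SE 0.38, DESeq2 adjusted p = 9.183e-12) and 5.86-fold lower in clone 4 (-2.55, SE 0.38, DESeq2 adjusted p = 4.370e-10). The difference between the clones was 0.22 (95% interval -0.71 to 1.15). BBC3 is among the most GC-rich members (64.4% of transcript bases, against a median of 48.3% over expressed genes). Expressed genes of its GC class had medians of -0.63 to -0.42 in the EIR libraries relative to parental cells, and with GC correction BBC3 in EIR against parental cells moved from -2.66 to -2.13 and still passed (DESeq2 adjusted p = 2.660e-07). In clone 4 it moved from -2.55 to -1.95 with GC correction (DESeq2 adjusted p = 1.204e-05).

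BCL2L11 followed a different course in each clone. It had 567 counts in parental cells. In clone 3 it had 212 counts untreated and 210 treated, and in clone 4 it had 342 untreated and 503 treated. The treated clone 4 library was thus close to parental cells, whereas both clone 3 libraries were far below. BCL2L11 was 2.83-fold lower in clone 3 (log2 fold change -1.50, SE 0.33, DESeq2 adjusted p = 6.664e-05). In clone 4 the estimate was -0.38 (95% interval -1.02 to 0.27, DESeq2 adjusted p = 0.4153). The lncRNA gene MIR4435-2HG covers BCL2L11 on the opposite strand, at 590 counts in the parental and 731 to 902 in the EIR libraries. The strand setting of the counting is unknown, so reads of the 2 genes may not be fully separated.

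BID, which is cleaved by caspases and links death receptors to mitochondria, had 1162 counts in parental cells. It had 1022 and 959 counts in untreated and treated clone 3 and 589 and 501 in clone 4. The clones did not overlap, with clone 4 lower. BID was 2.07-fold lower in clone 4 than in parental cells (log2 fold change -1.05, SE 0.23, DESeq2 adjusted p = 3.349e-05). In clone 3 the estimate was -0.31 (95% interval -0.75 to 0.13, DESeq2 adjusted p = 0.3439). With GC correction BID in clone 3 was at -0.01 (DESeq2 adjusted p = 0.9903). In clone 4 the alternatives gave -1.15 to -0.70.

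Of the sensitizers, PMAIP1, an inhibitor of MCL1, lay slightly above parental cells. It had 425 counts in parental cells, 577 and 731 in untreated and treated clone 3, and 524 and 498 in clone 4. All EIR libraries lay above the parental library, and the treated clone 3 library stood above the rest. The log2 fold change was 0.55 in clone 3 (95% interval 0.01 to 1.10, DESeq2 adjusted p = 0.1293) and 0.31 in clone 4 (95% interval -0.24 to 0.86, DESeq2 adjusted p = 0.4372).

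BIK, an endoplasmic reticulum-resident BH3-only protein, lay on opposite sides of parental cells in the clones. It had 32 counts in parental cells, 65 and 97 in untreated and treated clone 3, and 3 and 2 in untreated and treated clone 4. Clone 3 was above and clone 4 below the parental library in each culture. Summed over its libraries, clone 4 held 5 counts, 12.4 times fewer than parental cells after scaling (95% counting interval 4.81 to 40.9). The test gave a log2 fold change of -3.64 in clone 4 (SE 1.04, DESeq2 adjusted p = 0.0026). In clone 3 it gave 1.27 (95% interval -0.35 to 2.90, DESeq2 adjusted p = 0.2673). The counting intervals reflect counting error alone, since amplified reads are not independent molecules.

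BMF, which responds to loss of cell attachment, was likewise split by clone. It had 168 counts in parental cells, 110 and 80 in untreated and treated clone 3, and 211 and 252 in clone 4. Clone 3 lay below and clone 4 above parental cells. Neither difference from parental cells passed the threshold. The log2 fold change was -0.90 in clone 3 (95% interval -1.74 to -0.07, DESeq2 adjusted p = 0.0984) and 0.51 in clone 4 (95% interval -0.31 to 1.33, DESeq2 adjusted p = 0.3825). In clone 3 the quasi-likelihood test of edgeR gave an adjusted p of 0.0317, past the threshold. In clone 4 edgeR did not pass (adjusted p of 0.2676). With GC correction clone 4 passed, as higher (1.01, DESeq2 adjusted p = 0.0472), whereas clone 3 moved to -0.49 (DESeq2 adjusted p = 0.4500).

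HRK rose from 14 counts in parental cells. It had 98 and 97 counts in untreated and treated clone 3 and 43 and 92 in untreated and treated clone 4. The untreated clone 4 library was the lowest of the EIR libraries and still above the parental library. HRK was 6.62-fold higher in clone 3 (log2 fold change 2.73, SE 0.75, DESeq2 adjusted p = 0.0016) and 5.00-fold higher in clone 4 (2.32, SE 0.75, DESeq2 adjusted p = 0.0084). The clone 4 call was lost without its treated library (1.64, DESeq2 adjusted p = 0.2118) and without either clone 3 library (adjusted p of 0.0569 and 0.0601), and the clone 3 call was lost without either of its own libraries (adjusted p of 0.0548 and 0.0758). The precision of each HRK ratio is limited by the 14 counts of the single parental library.

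Among the effectors, BAX had 522 counts in parental cells, 414 and 347 in untreated and treated clone 3, and 432 and 366 in clone 4. All EIR libraries were below parental cells by a small amount. The log2 fold change was -0.53 in clone 3 (95% interval -1.09 to 0.02, DESeq2 adjusted p = 0.1549) and -0.35 in clone 4 (95% interval -0.90 to 0.21, DESeq2 adjusted p = 0.3790). With GC correction the values were -0.17 and 0.10.

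BAK1 had 559 counts in parental cells, 600 and 617 in untreated and treated clone 3, and 392 and 394 in clone 4. On the count scale clone 3 was close to parental cells and clone 4 was lower in both cultures. The log2 fold change was 0.05 in clone 3 (95% interval -0.46 to 0.56, DESeq2 adjusted p = 0.9290) and -0.47 in clone 4 (95% interval -0.98 to 0.05, DESeq2 adjusted p = 0.1705). With GC correction the values were 0.38 in clone 3 and -0.03 in clone 4, so that clone 4 was then the nearer to parental cells. The processed pseudogene BAK1P1 had 3 to 9 counts in all libraries.

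BOK showed the largest fall of the effectors. It had 446 counts in parental cells, 185 and 166 in untreated and treated clone 3, and 23 and 54 in untreated and treated clone 4. The groups were ordered without overlap, with parental cells highest and clone 4 lowest. BOK was 2.68-fold lower in clone 3 (log2 fold change -1.42, SE 0.46, DESeq2 adjusted p = 0.0099) and 11.2-fold lower in clone 4 (-3.48, SE 0.48, DESeq2 adjusted p = 1.937e-11). BOK shares the highest transcript GC content with BBC3 (64.4%), and the clone 3 call was lost with GC correction (-0.97, DESeq2 adjusted p = 0.1276) and without either clone 3 library (adjusted p of 0.1502 and 0.1867). In clone 4 BOK passed under every alternative, but its size varied, at -2.89 with GC correction and -4.26 without the treated clone 4 library. The antisense lncRNA gene BOK-AS1, which overlaps BOK on the opposite strand, was listed at 0 counts in the parental library and at 26 to 35 in the EIR libraries, and reads of the 2 genes may not be fully separated.

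**Figure D2:**
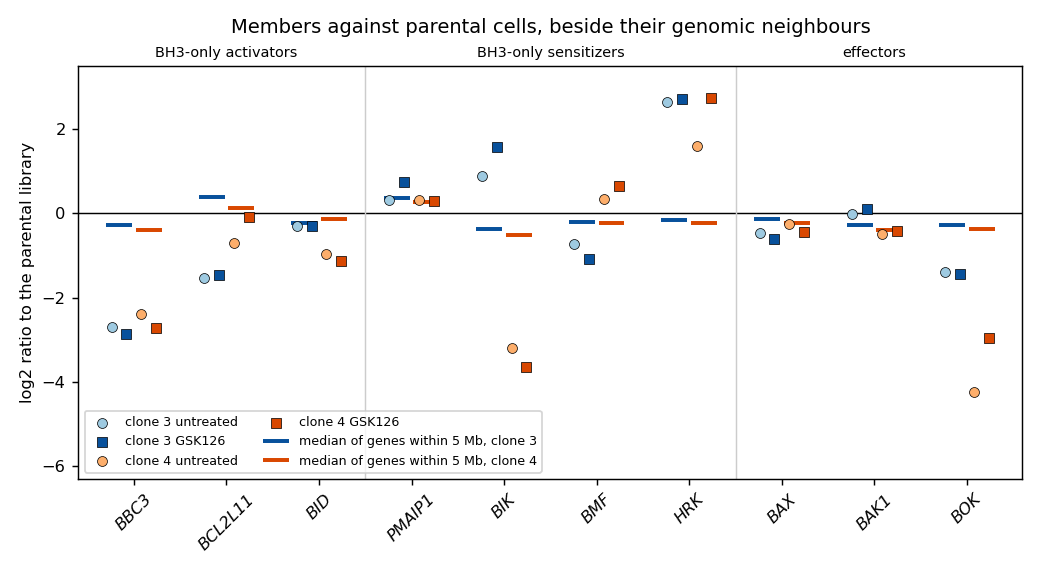
Log2 ratio of normalized counts to the parental library for each member in each EIR library (pseudocount 0.5), with bars for the median of expressed genes within 5 Mb in each clone. The neighbour medians stay between -0.52 and 0.39, while BBC3, BIK, HRK and BOK lie far from theirs.

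The members were next set beside the genes around them. The 140 expressed genes within 5 Mb of BBC3 on chromosome 19 (47724079 to 47736023, minus strand, GRCh37) had median log2 ratios to parental cells of -0.28 in clone 3 and -0.39 in clone 4. The 83 genes around BIK (chromosome 22, 43506756 to 43525718, plus strand) had medians of -0.38 and -0.52. The neighbours of BIK thus had negative medians in both clones, whereas BIK itself was higher in clone 3. The 30 genes around BOK (chromosome 2, 242490839 to 242513546, plus strand) had medians of -0.27 and -0.37. The 32 genes around BCL2L11 (chromosome 2, 111876955 to 111926021, plus strand) had medians of 0.39 and 0.12, opposite in sign to BCL2L11. The 61 genes around HRK (chromosome 12, 117293949 to 117319246, minus strand) had medians of -0.17 and -0.22. Other members lay closer to their neighbours. In untreated and treated clone 4, PMAIP1 was at 0.32 and 0.30 (neighbour median 0.27). BAK1 was at -0.50 and -0.43 there (-0.39), and BAX at -0.26 and -0.44 (-0.22). BID was near its neighbours in clone 3 (-0.31 and -0.30, median -0.22) but not in clone 4 (-0.97 and -1.14, median -0.14). BMF departed in clone 3 (-0.73 and -1.09, median -0.20) and in clone 4 (0.34 and 0.65, median -0.24). Copy number was not measured.

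Pooling all 4 EIR libraries against parental cells called 2 of 10 members, where 25.5% of all genes tested passed (13.2% lower and 12.4% higher). These were BBC3 (log2 fold change -2.66, SE 0.31) and HRK (2.54, SE 0.70). In edgeR 1 member, BBC3, was called, with 5.73% of 30476 genes called, a larger set than the 16288 tested in DESeq2. The adjusted p of HRK was 0.0024 in DESeq2 and 0.0739 in edgeR. BOK, which was lower in each EIR library, had a pooled estimate of -2.11 with an SE of 0.96 (DESeq2 adjusted p = 0.0905). The spread between the clones enters that SE. For BIK, whose clones moved apart, the pooled estimate was 0.32 with an SE of 1.78. All 4 EIR libraries were below parental cells for 5 members (BBC3, BCL2L11, BID, BAX and BOK), as they were for 36.6% of all genes tested. They were above for 2 members (PMAIP1 and HRK), as for 33.4% of all genes tested. The members' median of -0.31 moved to 0.08 with GC correction.

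The clones were then compared with each other, which does not use the parental library. Of 10 members, 5 differed between clone 4 and clone 3 (DESeq2 with treatment as covariate), where 9.83% of all genes tested differed (6.52% lower and 3.31% higher in clone 4). The same 5 passed in edgeR, where 6.44% of 29847 genes passed, a larger set than the 17695 tested in DESeq2. BIK, BOK and BID were lower in clone 4, and BMF and BCL2L11 were higher in clone 4. They comprised 2 of 3 activators, 2 of 4 sensitizers and 1 of 3 effectors.

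BIK differed most. The 162 counts summed over the clone 3 libraries stood against 5 in clone 4, a ratio of 29.9 after scaling (95% counting interval 12.5 to 93.2). The log2 fold change was -4.88 (SE 0.96, DESeq2 adjusted p = 1.388e-05), and it passed under all 10 alternative settings. BOK was 4.52-fold lower in clone 4 (log2 fold change -2.17, SE 0.52, DESeq2 adjusted p = 6.347e-04). Its difference was -1.57 without the untreated and -2.85 without the treated clone 4 library. BID was 1.69-fold lower (-0.76, SE 0.23, DESeq2 adjusted p = 0.0115). BMF was 2.65-fold higher in clone 4 (1.41, SE 0.40, DESeq2 adjusted p = 0.0066), and BCL2L11 was 2.12-fold higher (1.09, SE 0.31, DESeq2 adjusted p = 0.0062). These calls rest on 2 libraries a clone. The fits that left out a library also dropped the treatment covariate. With every EIR library and no covariate the same members passed. Without the untreated clone 3 library 2 members passed (BIK and BMF), without the treated clone 3 library 1 (BIK), and without the treated clone 4 library 4, with BCL2L11 at 0.78 (DESeq2 adjusted p = 0.1040).

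The remaining 5 members did not pass between clones. The estimate was -0.52 for BAK1 (95% interval -1.02 to -0.02, DESeq2 adjusted p = 0.2363), whose clone libraries did not overlap. It was -0.51 for HRK (95% interval -1.58 to 0.56), -0.24 for PMAIP1 (95% interval -0.73 to 0.26), 0.22 for BBC3 (95% interval -0.71 to 1.15) and 0.18 for BAX (95% interval -0.36 to 0.72). The normalized counts of the clones did not overlap for 8 of 10 members, beside 61.7% of all genes tested. Genes within 5 Mb of each member had median differences between the clones of -0.17 to 0.05. With GC correction 5 members passed as well.

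**Figure D3:**
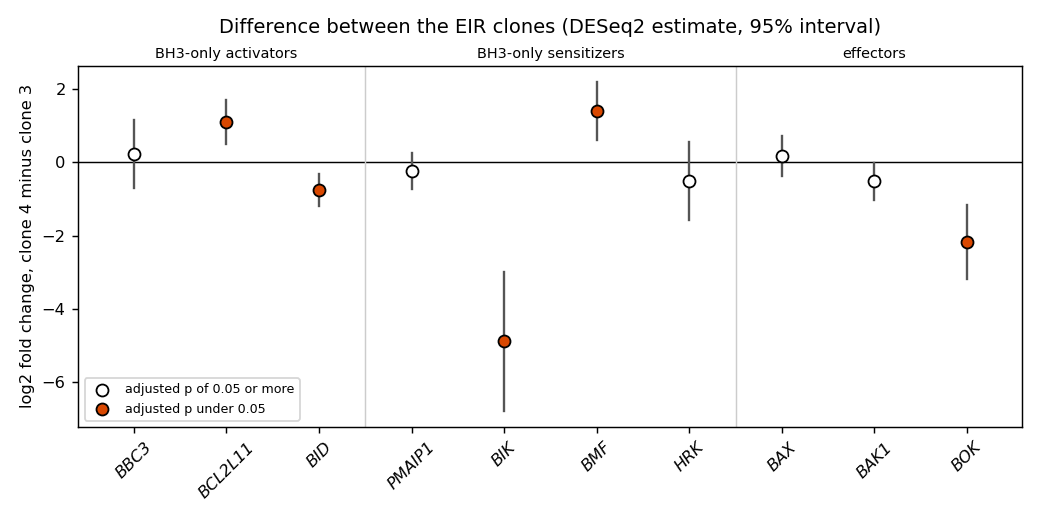
Log2 fold change of clone 4 against clone 3 for each member (points) with 95% intervals (lines), filled where the DESeq2 adjusted p was under 0.05. BIK, BOK and BID are filled below 0, BCL2L11 and BMF above 0.

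GSK126 treatment of the EIR clones was examined next, to ask whether the inhibitor still moved these genes in resistant cells. No member passed between treated and untreated EIR libraries (0 of 10 in DESeq2 and in edgeR, 0 with an unadjusted p under 0.05 in either), where 0.00335% of all genes tested passed in DESeq2 (1 gene of 29847) and 0.0% in edgeR. Unadjusted p values under 0.05 were found for 117 genes in DESeq2 and 232 in edgeR, of 29847 tested in each. In these fits the difference between the clones counted as spread. That limits what they could detect for members that differed between the clones. With the clone as replicate block, since the treated and untreated library of a number come from the same clone, 4 genes and again 0 members passed. Across the clones, 3 members had higher and 2 had lower values in the treated culture of both clones, and 5 had opposite signs. The matching shares over all genes were not computed. The members' fold changes ranged from -0.27 for BBC3 (95% interval -1.13 to 0.59) to 0.62 for BIK (95% interval -2.65 to 3.89). For 6 members (BBC3, BCL2L11, BIK, BMF, HRK and BOK) the interval included a 2-fold change. With the clone as replicate block it did so for 4 members, BBC3 (-1.20 to 0.66), BIK (-1.39 to 2.03), HRK (-0.48 to 1.66) and BOK (-0.48 to 1.55).

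**Figure D4:**
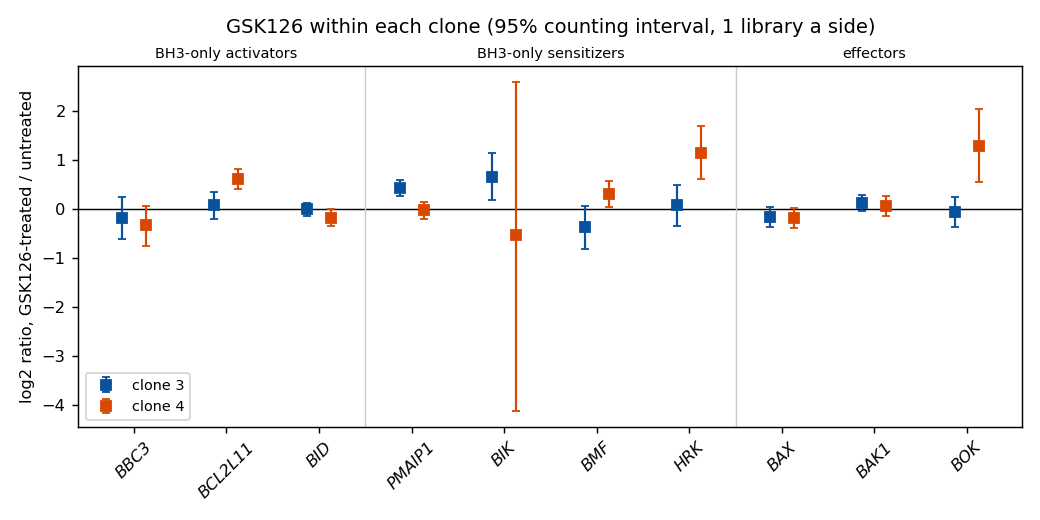
Log2 ratio of the GSK126-treated to the untreated library in clone 3 (blue) and clone 4 (orange), with 95% counting intervals that cover counting error only and compare 1 library with 1. In clone 4 BCL2L11, BMF, HRK and BOK lie above 0 beyond their intervals, and in clone 3 PMAIP1 and BIK do.

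Between the single libraries of a clone, counting error alone left several differences. In clone 4 the treated library held 2.23 times as much HRK (95% counting interval 1.53 to 3.27), 2.44 times as much BOK (1.47 to 4.17), 1.53 times as much BCL2L11 (1.33 to 1.76) and 1.24 times as much BMF (1.03 to 1.5) as the untreated library. BID was at 0.885 (0.784 to 0.998) in the same comparison. In clone 3 the intervals of HRK (1.06, 0.790 to 1.41), BOK (0.958, 0.772 to 1.19) and BCL2L11 (1.06, 0.870 to 1.29) included 1. The members whose intervals excluded 1 in clone 3 were PMAIP1 (1.35, 1.21 to 1.51) and BIK (1.59, 1.15 to 2.22), whereas PMAIP1 was at 0.988 (0.873 to 1.12) in clone 4. BBC3 remained low in both clones, at 0.884 (0.658 to 1.19) and 0.793 (0.596 to 1.05). These ratios compare libraries, not conditions, because neither culture of a clone was repeated. The share of all genes whose counting interval excluded 1 was not computed, so the members cannot be said to stand out.

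To compare levels between members, counts were scaled to the library total as CPM and divided by transcript length (CPM per kb). In parental cells BAX (28.8), BID (27.9) and BCL2L11 (23.6) had the highest levels on this scale, followed by BBC3 (12.8), PMAIP1 (11.3) and BOK (10.6). Neighbours in that order are not separable, because the parental library is single and the length is a median over annotated transcripts. HRK (0.638) and BIK (1.13) were lowest. In untreated clone 3, BID (23.8), BAX (22.1) and PMAIP1 (14.9) led, and in untreated clone 4, BAX (24.1), BCL2L11 (14.4) and BID (14.3). BBC3 held 9.54% of the summed level of all members in the parental library, against 1.82% to 2.74% in the EIR libraries. HRK, from 0.476%, reached 2.23% to 4.53%. PMAIP1 went from 8.43% to between 14.3% and 19.9%.

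The summed level of all members was 134 CPM per kb in parental cells, 96.7 and 99.2 in untreated and treated clone 3, and 89.0 and 109 in untreated and treated clone 4. Every EIR library was lower than the parental library. The activators summed to 64.3 in parental cells and to 31.2 to 40.7 across EIR cells, and the effectors to 47.9 and to 30.7 to 35.3. The sensitizers were at 21.7 in parental cells and between 26.9 and 35.7 in EIR libraries. The sum of the anti-apoptotic genes was 142 in the parental library and 138 to 151 across EIR cells, so that the parental library lay within their range. These sums are descriptions of single libraries, carry no GC correction and were not tested. In the pooled fit GC correction moved the median log2 fold change of the members from -0.31 to 0.08. It moved that of the anti-apoptotic genes from 0.03 to 0.35.

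**Figure D5:**
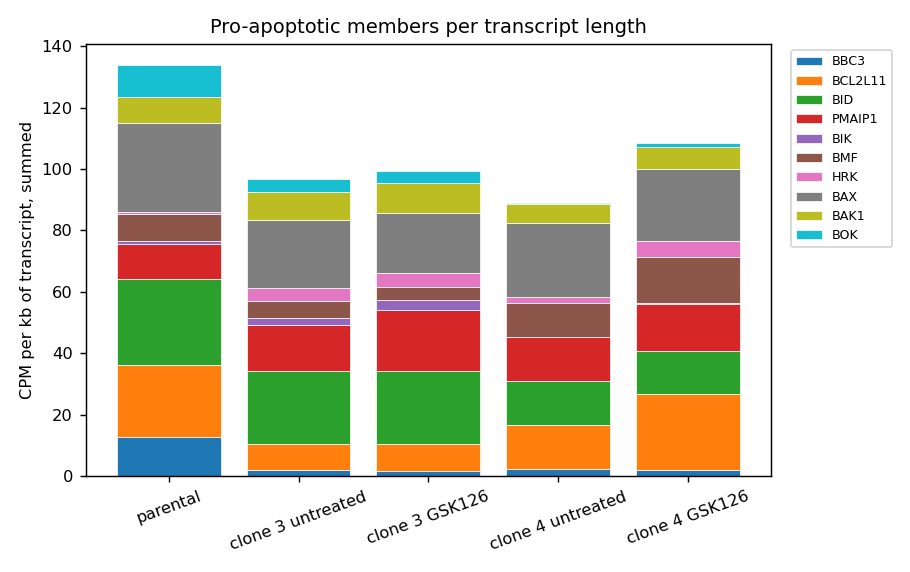
Stacked CPM per kb of transcript of the 10 members in each library. The stack is 134 high in the parental library and 89.0 to 109 in the EIR libraries, and the BBC3 and BOK layers are thin in every EIR bar.

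The surrounding pathway was described with the EIR against parental fit, in which the median log2 fold change over all genes tested was 0.00. Of the anti-apoptotic genes, 4 of 6 received an adjusted p and 1 of these passed. BCL2 rose from 359 counts in the parental library to between 554 and 696 in EIR cells (0.79 on the log2 scale, SE 0.24, DESeq2 adjusted p = 0.0060). BCL2L1 (0.21), MCL1 (-0.23) and BCL2L2 (-0.14) did not pass. BCL2A1 had 8 and 12 counts in clone 3 and 0 in the other libraries, and BCL2L10 had 8 counts in the parental library only and 0 elsewhere. Other BCL2 family and BH3-containing genes passed in 0 of 7 cases in the pooled fit. By clone, 1 was higher in clone 3 and 2 were lower in clone 4, named here after their values were seen. BAD, a BH3-only gene, had 503 counts in parental cells, 354 and 308 in untreated and treated clone 3, and 185 and 205 in clone 4, and was lower in clone 4 (-1.32, SE 0.32, DESeq2 adjusted p = 2.174e-04). BCL2L13 was lower in clone 4 (-0.70, DESeq2 adjusted p = 5.559e-04), and BCL2L15 was higher in clone 3 (2.32, DESeq2 adjusted p = 0.0138). Of 14 genes of mitochondrial release and the apoptosome, 1 rose and 4 fell (1 and 4 in clone 3, 1 and 6 in clone 4), and the largest change among those that passed was in CYCS, which encodes cytochrome c. CYCS went from 5817 parental counts to between 14797 and 19970 in EIR cells (1.57 on the log2 scale, SE 0.21, DESeq2 adjusted p = 7.422e-12).

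Of 11 tested transcription factor genes known to act on BH3-only genes, 3 fell and 0 rose, with a median of -0.59 (-0.36 with GC correction). In each clone 5 fell and 0 rose. The largest change among those that passed in the pooled fit was in FOXO4, from 779 parental counts to between 294 and 342 in EIR cells (-1.30, SE 0.25, DESeq2 adjusted p = 5.590e-06). Of 20 tested p53 target genes outside the members, 3 fell and 2 rose, with a median of -0.19 (-0.02 with GC correction). By clone, 7 fell and 2 rose in clone 3, and 8 fell and 4 rose in clone 4. The largest change among those that passed in the pooled fit was in SESN2, a stress-induced regulator of growth signalling, from 1959 parental counts to between 584 and 811 in EIR cells (-1.56, SE 0.24, DESeq2 adjusted p = 3.079e-09). Over all genes tested 25.5% passed in the pooled fit, 29.2% in clone 3 and 32.9% in clone 4.

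Genes with the pattern most like that of BBC3 and of HRK, the members with the largest fall and rise in the pooled fit, were sought among 11564 expressed genes by the root mean square difference of centred log2 normalized counts over the 5 libraries. The nearest to BBC3 were LTBP3 (0.19), SHOX2 (0.19) and YPEL1 (0.20). The nearest to HRK were SNX18P3 (0.09), NAV2 (0.14) and ABCC9 (0.24). NAV2 had 103 normalized counts in parental cells, 670 and 560 in untreated and treated clone 3, and 257 and 644 in untreated and treated clone 4. As with HRK, its untreated clone 4 library was the lowest of the EIR libraries.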

How the data were processed

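Total RNA of 1 parental and 4 EIR cultures (clones 3 and 4, untreated and GSK126-treated) was sequenced after stranded total RNA library preparation, per the labels. The authors aligned reads to hg19 with Bowtie2 and estimated counts per gene with RSEM (version 1.2.3 in the submitters' processing notes) on an Ensembl annotation whose release is not given in the sources used here. The authors deposited the estimated (expected) counts as whole numbers without normalization, and they were used unchanged. RSEM shares reads among genes they fit equally, and whether strand was used is not stated.

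Groups and clone numbers came from the sample labels. Genes were named from GENCODE release 44 on GRCh37 (29203 of 30476 identifiers, 95.8%), which also gave GC content and length (medians over transcripts). Promoters are from RefSeq. Members were named from the family. The members, gene lists, naming rule (all members, the largest called change of each list, every anti-apoptotic gene and the 3 genes most like 2 members) and tests were chosen with earlier results of these data known.

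Wald tests (two-sided) were run in DESeq2 1.42.0 under R 4.3.3 after median-of-ratios scaling, with p-values adjusted over all genes by Benjamini-Hochberg and a threshold of 0.05, for the 4 EIR libraries against parental, each clone against parental (3 groups), clone 4 against clone 3 with treatment as covariate, and treated against untreated EIR libraries. No separate cultures beyond these are given, so p-values measure the spread between EIR libraries only. Libraries of the same clone are not independent, and a lone library was assumed to vary like the others. In the 3-group fits the spread came from the untreated and treated library of each clone. GSK126 treatment thus counted as spread there, and differences between clones did not enter it. Clone number pairs the libraries because they come from the same clone (deviations from the treatment mean correlated at 0.862 over the 11564 genes averaging 100 or more normalized counts, called expressed genes). Ratios per library used a pseudocount of 0.5. Intervals of single-library ratios are exact conditional 95% intervals. Alternatives were edgeR 4.0.16, TMM and total count scaling, a filter of 10 counts in 2 libraries, correction by 20 GC bins, summed clones, covariates, the replicate block, leaving out each EIR library and a pseudocount of 5. The scripts were tested on simulated counts.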

Additional observations from a re-analysis of the deposited data

Results flagged for a closer look

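PMAIP1 and HRK each had a library apart from the other EIR libraries on the log2 scale. For PMAIP1 the treated clone 3 library was the highest, with a gap to the next of 0.956 of the range of the 4 libraries. For HRK the untreated clone 4 library was the lowest, with a gap of 0.912. The critical value of Dixon's test was exceeded in both. That test assumes libraries of a single kind, whereas these came from 2 clones, each untreated and treated. Its nominal rate of about 1 in 20 groups therefore does not apply here. All 10 members were screened, and the share over all genes is not given.

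Members that differed between the clones by the DESeq2 test of clone 4 against clone 3 were BCL2L11 (log2 fold change 1.09), BMF (1.41), BIK (-4.88), BID (-0.76) and BOK (-2.17). BIK was above parental cells in both clone 3 libraries and below in both clone 4 libraries, and BMF the reverse.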

How the results depend on the processing

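BBC3 passed against parental cells in every alternative run, pooled (11 settings) and by clone (9 each). Against the pooled 4157 genes and 2 members called in EIR cells, edgeR called 1746 genes and 1 member, treatment as covariate 1998 and 1, and summing each clone 1914 genes. Of the calls in edgeR 37.2% were higher, against 48.4%. For GSK126 the 1 gene called became 0 in edgeR, 4 with the replicate block and 1 with the block in edgeR, with 0 members in each. The pairing changed no call of a member. In the leave-one-out fits the genes called ranged from 2837 to 4024 (EIR against parental, 2 to 3 members), 1983 to 5024 (clone 3, 2 to 4 members), 3340 to 4625 (clone 4, 4 to 5 members), 831 to 2800 (clone 4 against clone 3, 1 to 5 members) and 1 to 25 (GSK126, 0 members). The leave-one-out fits of clone 4 against clone 3 also dropped the treatment covariate. With all 4 EIR libraries, 2514 genes passed without that covariate and 1739 with it. Numbers from these leave-one-out fits are thus not comparable with 1739. Without either clone 3 library, clone 3 against parental cells fell to 2309 (untreated left out) and 1983 genes (treated left out), each with 2 members, and clone 4 against parental cells to 3340 and 3341 genes. The 25 genes of the GSK126 comparison came without untreated clone 3. In EIR against parental cells, BCL2L11 passed only without treated clone 4 (-1.18) and BOK only without untreated clone 4 (-1.78).

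Signs turned only where a value had not passed the threshold. Against parental cells, EIR BIK was at -0.03 with the treatment covariate and between -0.56 (without treated clone 3) and 0.73 with a library left out. EIR BMF was at 0.05 with total count scaling, 0.45 with GC correction, 0.14 and 0.19 without untreated and treated clone 3, and -0.35 without treated clone 4. GC correction put BAK1 in EIR cells at 0.19 and BAX in clone 4 at 0.10. With a library left out, BAK1 in clone 3 ranged from -0.02 to 0.12 and HRK between clones from -1.10 to 0.05. For GSK126, BMF was at -0.02 with the replicate block and -0.01 with the block in edgeR. In GSK126 fits without a library, PMAIP1 ranged from -0.04 to 0.43, BCL2L11 from -0.40 to 0.95, BIK from -3.94 to 4.01, BMF from -1.01 to 0.74, BID from -0.57 to 0.30, BAK1 from -0.22 to 0.36 and BOK from -0.80 to 2.24. Where an alternative left out a library, fewer libraries entered the fit, and between clones the treatment covariate was dropped as well. Otherwise the cause was not tested. A pseudocount of 5 cannot change the sign of a ratio to parental cells, so it is no check of sign. Low counts limit BIK in clone 4 and HRK in parental cells.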

Other observations

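Some genes of the wider pathway lists differed between the clones. Outside the naming rule and chosen after its values were seen, FOXO1, a forkhead factor known to act on BCL2L11, had 1261 counts in parental cells, 363 and 407 in untreated and treated clone 3, and 765 and 1074 in untreated and treated clone 4. FOXO1 was higher in clone 4 than in clone 3 (log2 fold change 1.35, SE 0.24, DESeq2 adjusted p = 5.549e-07), whereas FOXO3 (0.17, DESeq2 adjusted p = 0.8066) and FOXO4 (0.26, DESeq2 adjusted p = 0.7876) did not pass. A relation between these factors and the members was not tested. CASP9, the initiator caspase of the apoptosome, also chosen after its values were seen, had 860 counts in parental cells, 248 and 171 in clone 3, and 475 and 374 in clone 4. It was higher in clone 4 than in clone 3 by 1.14 (SE 0.30, DESeq2 adjusted p = 0.0022). Of 20 p53 target genes tested, 2 were higher and 4 lower in clone 4, where 3.31% of all genes tested were higher and 6.52% lower.

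Clone 4 had a pair of p53 target genes at very low counts, chosen after their values were seen. SPATA18 had 304 counts in parental cells, 270 and 277 in clone 3, and 14 and 17 in clone 4. TP53INP1 had 930 counts in parental cells, 251 and 201 in clone 3, and 15 and 18 in clone 4. The 2 genes of that list that were higher in clone 4 than in clone 3 were DDB2 and TIGAR. DDB2 had 938 counts in parental cells, 741 and 708 in clone 3, and 2234 and 2176 in clone 4 (1.72, DESeq2 adjusted p = 5.973e-17). TIGAR was higher by 0.79 (DESeq2 adjusted p = 0.0031).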
